A study of Mus musculus with 5 samples.

Results

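Splicing factor and hnRNP genes were followed in leukocytes from mouse lung 3 days after irradiation of a tumour. The members were every gene of the deposited table whose symbol begins with Srsf, Hnrnp, Sf3a, Sf3b, U2af, Snrp, Prpf or Rbm followed by a digit. There were 102 of them among 14457 gene symbols: 10 Srsf, 20 Hnrnp, 9 Sf3, 3 U2af, 12 Snrp, 13 Prpf and 35 Rbm genes. Cells carrying CD45, the leukocyte surface phosphatase encoded by Ptprc, had been sorted from lung suspensions of mice with tumours labelled MC38/MC38. MC38 is a mouse colon carcinoma line, and in the IR group MC38 tumours were irradiated. The labels give 2 libraries from the irradiated group (IR) and 3 from the control group (ctrl), all with the same tumours and all from lung. The sources used here do not give the mouse strain, sex or age, the radiation dose or whether a library is 1 animal, so p-values measure only the spread between these libraries, which may be technical.

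Splicing removes introns from pre-mRNA in the spliceosome, which is assembled anew on each intron. The U1 particle pairs with the 5′ splice site, U2AF binds the pyrimidine tract and the AG at the 3′ end, and the U2 particle with its SF3A and SF3B complexes takes the branch point. The tri-snRNP, which holds many Prpf proteins, then joins. SR proteins (Srsf) mostly bind exonic enhancers and favour the use of nearby sites, whereas hnRNP proteins coat nascent RNA and often repress sites. In leukocytes this balance is known for its part in the exon choice of Ptprc itself, where Hnrnpl and Hnrnpll act as repressors. The name rule for Rbm genes takes any RNA-binding motif protein, and not all are splicing factors: Rbm15 and Rbm15b guide the m6A methyltransferase, and Rbm19 and Rbm28 act in ribosome assembly.

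No member passed the test between IR and ctrl, and most lay slightly lower in IR. Values are read counts that the authors scaled between libraries; they were compared as log2(value + 1) with limma. Benjamini-Hochberg adjustment ran over the 12777 genes that reached 10 in 2 or more libraries. Of the 102 members, 98 met that minimum and 91 were at 10 or more in every library. The 4 that did not were Snrpn, Rbm20, Rbm44 and the pseudogene Rbm6-ps1, none of which went above 25.2 in any library. Among the 98 tested, 0 were called higher and 0 lower at an adjusted p under 0.05, where 1.14% and 0.36% of all genes tested were called (1.5% in either direction). At an unadjusted p under 0.05, 14 members were lower and 1 was higher (14.3% lower, against 7.2% of all genes tested; 7.76% of all genes were higher at that level).

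The position of the libraries gave the same picture in counts. In 25 of the 98 members both IR libraries lay below all 3 ctrl libraries, which is 25.5% beside 16.3% of all genes tested. In 6 members both IR libraries lay above all ctrl libraries, which is 6.12% beside 15.2% of all genes tested. Negative fold changes were found for 67 members (68.4%), beside 53.2% of all genes. The median log2 fold change of the members was -0.18 and that of all genes -0.05. Since the members were chosen with results of these data known, these shares are a description and carry no test. The members also had a smaller median SE than all genes tested (0.29 against 0.48). The shares here and at the unadjusted p do not allow for that.

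Reads assigned to the listed genes numbered about 8077740 and 10045700 in IR and 8026900 to 10233300 in ctrl, as estimated from the smallest step between values. Reads outside these genes are not in these estimates. The highest of these, for ctrl replicate 3, is the least certain, since 86.1% of its low values lay near a step. The first principal component of all genes (41.6% of the variance) placed IR replicate 2 at 131.5, apart from IR replicate 1 at -6.00 and from ctrl at -51.9 to -30.5. Ptprc itself was 17369 and 27247 in IR and 15543 to 15842 in ctrl. Of 16 neutrophil markers all 16 lay above ctrl in both IR libraries, and their summed values were 95227 and 189400 in IR and 39300 to 67961 in ctrl. Of these markers 6 passed as higher (Csf3r, Cxcr2, Hdc, Mmp8, Retnlg and Trem1). The 16 T cell markers summed to 6566 and 5013 in IR and 9544 to 11253 in ctrl, and 2 of them (Cd3g and Lef1) passed as lower. The 13 B cell markers summed to 9217 and 7511 in IR and 9243 to 15408 in ctrl, with Ebf1 passing as lower. The 14 lung epithelium markers summed to 119206 and 58182 in IR and 24090 to 27989 in ctrl, with Scgb1a1 and Scgb3a2 passing as higher. Without these 2 secretoglobin genes the other 12 summed to 10997 and 4697 in IR and 4211 to 7246 in ctrl, which overlapped. In 4 of the 14 the fold change was negative, as for Epcam with 45.8 and 74.8 in IR, against 185.1, 133.4 and 171.6 in ctrl. Fibroblast markers were low, with Col1a1 at 0 and 10.9 in IR and at 0 to 4.3 in ctrl. The part of these cell types in the splicing genes' values was not tested, and in bulk libraries fewer cells of a type and less RNA per cell cannot be told apart.

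The promoters of the members nearest to the threshold (Prpf4b, Rbm6 and Prpf38b), of the member with the largest fold change (Rbm45) and of Tra2b, the related gene that did pass, are shown so that the genes that lay low together can be read side by side. Each runs from 120 bases before to 30 bases after the RefSeq start (GRCm38.p6), on the gene's strand, and capitals mark CCGGAAG, the core bound by ETS factors, and CCAAT, the NF-Y box, in either orientation. Prpf4b is chr13:34875409-34875558 (+), Rbm6 chr9:107872790-107872939 (-), Prpf38b chr3:108911700-108911849 (-), Rbm45 chr2:76369864-76370013 (+) and Tra2b chr16:22265976-22266125 (-).
Prpf4b: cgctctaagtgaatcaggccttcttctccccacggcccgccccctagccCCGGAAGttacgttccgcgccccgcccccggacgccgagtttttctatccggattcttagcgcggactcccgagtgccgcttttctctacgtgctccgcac
Rbm6: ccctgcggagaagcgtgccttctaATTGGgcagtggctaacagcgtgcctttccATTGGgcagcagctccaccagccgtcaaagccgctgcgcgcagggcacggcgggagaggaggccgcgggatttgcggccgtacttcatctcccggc
Prpf38b: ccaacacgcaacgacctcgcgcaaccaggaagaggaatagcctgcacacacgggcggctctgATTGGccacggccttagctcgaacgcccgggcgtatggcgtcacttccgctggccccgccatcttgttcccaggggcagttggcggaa
Rbm45: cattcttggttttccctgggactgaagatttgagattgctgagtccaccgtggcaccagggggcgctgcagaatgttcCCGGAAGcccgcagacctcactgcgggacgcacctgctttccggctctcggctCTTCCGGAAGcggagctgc
Tra2b: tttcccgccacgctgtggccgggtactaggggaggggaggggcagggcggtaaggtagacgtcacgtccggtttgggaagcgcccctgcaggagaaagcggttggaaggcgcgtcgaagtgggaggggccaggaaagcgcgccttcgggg

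The ETS core was present in the Prpf4b and Rbm45 windows and the NF-Y box in those of Rbm6 and Prpf38b, while neither was found in the Tra2b window. In Rbm45, CTTCCGG and CCGGAAG overlap in the match after the start and share bases there. Over the full RefSeq windows of 250 bases before to 50 after the start, 84 members matched with 110 starts. Of these windows, 30 held CCGGAAG in either orientation (27.3%), beside 8.86% of all 32851 RefSeq windows, and 51 held CCAAT (46.4%, beside 37.4%). The 32851 windows were not limited to genes tested here, so this background differs from that of the other shares. Shares over the windows of tested genes alone were not computed. A match only describes the letters of the window, and a missing match says only that they are not in it.

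Among the Prpf genes, whose proteins are mostly parts or partners of the tri-snRNP, 10 of 13 had negative fold changes (76.9%, beside 53.2% of all genes). Both IR libraries lay below all ctrl libraries in 4 of the 13 (30.8%, beside 16.3% of all genes). Prpf4b, a nuclear kinase that phosphorylates tri-snRNP proteins (chromosome 13, 34875302 to 34906064, GRCm38), had 1002 and 967.5 in the IR libraries, against 1826, 2151 and 1314 in the ctrl libraries. The groups did not overlap, and the IR libraries were close together. The log2 fold change was -0.81 ± 0.23 (SE), which missed the threshold with a limma adjusted p of 0.0684. The first bases of Prpf4b overlap Gm36839, a lincRNA gene on the opposite strand, and the sources do not say whether counting used strand. This limit touched 40 of the 98 tested members, which overlap a gene on the opposite strand.

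Prpf38b, a relative of the spliceosomal protein Prpf38a (chromosome 3, 108902805 to 108911727), had 836.6 and 1103 in IR, against 1578, 1923 and 1354 in ctrl. Its log2 fold change was -0.74 ± 0.22 (standard error; by limma, adjusted p = 0.0974), and again the groups did not overlap. Prpf31, which holds the tri-snRNP together, had 270.1 and 356.4 in IR, against 649.9, 653.2 and 338.7 in ctrl. Here ctrl replicate 3 lay between the IR libraries, and the log2 fold change was -0.75 ± 0.32 (standard error; by limma, adjusted p = 0.257). Prpf8, the protein at the catalytic centre of the spliceosome, had 3790 and 2892 in IR, against 3873, 3618 and 3865 in ctrl. Only IR replicate 2 was below the ctrl libraries, and the log2 fold change was -0.19 ± 0.19 (standard error; by limma, adjusted p = 0.685). The 5 tri-snRNP proteins Prpf3, Prpf4, Prpf6, Prpf8 and Prpf31 had a median log2 fold change of -0.19, and in none of them did the groups separate.

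The Rbm family had a median log2 fold change of -0.44 over 32 tested genes, with 24 negative and 8 positive fold changes (75% negative, beside 53.2% of all genes). In 11 genes the IR libraries lay below all ctrl libraries (34.4%, beside 16.3% of all genes). The median was -0.22 without IR replicate 2, -0.30 without IR replicate 1 and -0.28 without ctrl replicate 2. Rbm6, a splicing regulator related to Rbm5 and Rbm10 (chromosome 9, 107773559 to 107873237), had 403.8 and 302.6 in IR, against 579.8, 891.6 and 599.4 in ctrl. The groups were apart, with a log2 fold change of -0.95 ± 0.28 (standard error; by limma, adjusted p = 0.0863). Rbm5, which lies next to Rbm6 on chromosome 9, had 592.6 and 1063 in IR, against 1030, 1321 and 900.1 in ctrl, so that IR replicate 2 lay inside the ctrl range. Rbm10, on the X chromosome, had a log2 fold change of 0.47 ± 0.51 (standard error; by limma, adjusted p = 0.714).

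Rbm25, an SR-like protein that acts on the splicing of apoptosis genes, was close to equal in both IR libraries, at 1982 and 1938, against 2965, 3130 and 2492 in ctrl (log2 fold change -0.54 ± 0.20, standard error; by limma, adjusted p = 0.182). Rbm39, a relative of U2AF that helps recognise 3′ splice sites, had 2905 and 4279.2 in IR, against 4671, 6429 and 4279.5 in ctrl. IR replicate 2 and ctrl replicate 3 were thus level, and the log2 fold change was -0.52 ± 0.21 (standard error; by limma, adjusted p = 0.244).

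Rbm45, an RNA-binding protein studied mainly in the nervous system, had the largest fold change of all members, and it came mostly from 1 library. It had 151.4 and 17.6 in the IR libraries (the lower one is replicate 2), against 269.6, 277.7 and 209.5 in ctrl. The log2 fold change was -2.24 ± 0.69 (standard error; by limma, adjusted p = 0.147). Without IR replicate 2 it was -0.72 and without IR replicate 1 it was -3.76. Each of these values rests on 1 IR library, with no spread within IR.

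Other Rbm genes were picked for mention after their values had been seen. Rbm15b had 479.5 and 273.1 in IR, against 630.5, 652.2 and 573.8 in ctrl. Its partner in m6A deposition, Rbm15, had 545.9 and 294.2 in IR, against 404.0, 570.0 and 807.5 in ctrl, where the groups overlapped. Rbm3, a cold-inducible protein, had 130.9 and 131.1 in IR, against 260.3, 229.3 and 196.4 in ctrl, a log2 fold change of -0.79 ± 0.39 (standard error; by limma, adjusted p = 0.347). On the higher side stood Rbm47, which binds RNA in the editing of Apob, with 595.4 and 784.2 in IR, against 256.9, 769.2 and 302.9 in ctrl, where ctrl replicate 2 reached the IR level. Rbm33 was at 2074 and 2088 in IR, against 2055, 1753 and 1884 in ctrl, apart by a small margin (log2 fold change 0.14 ± 0.20, standard error; by limma, adjusted p = 0.791).

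**Figure D1:**
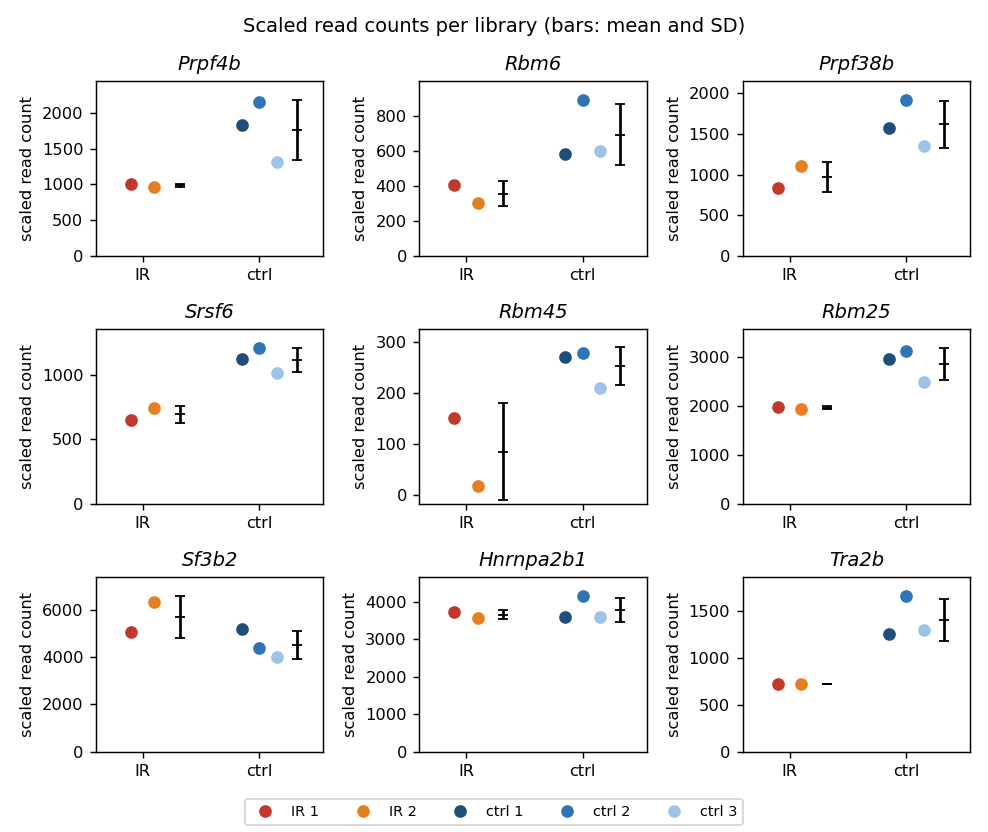
Scaled read counts (vertical axes) of 8 members and Tra2b in each library, with the mean and SD of each group; IR has 2 libraries and ctrl 3. In Prpf4b, Rbm6, Prpf38b, Srsf6, Rbm45, Rbm25 and Tra2b both IR points lie below all ctrl points. The size of the Rbm45 difference comes mostly from IR replicate 2 at 17.6. Sf3b2 and Hnrnpa2b1 overlap between groups.

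Of the 10 SR protein genes, 0 passed and 9 had negative fold changes (90%, beside 53.2% of all genes). In 5 of the 10 the IR libraries lay below all ctrl libraries (50%, beside 16.3% of all genes). The family median was -0.31, and the medians of the IR libraries were -0.29 and -0.27, against -0.08 to 0.10 in the ctrl libraries, as log2 differences from the ctrl mean. Srsf6 (chromosome 2, 162931528 to 162937121), an SR protein that binds exonic enhancers, had 645.9 and 740.5 in IR, against 1126, 1204 and 1016 in ctrl. The groups lay well apart, with a log2 fold change of -0.69 ± 0.22 (standard error; by limma, adjusted p = 0.135). Srsf2, also called SC35, had 901.1 and 737.1 in IR, against 1114, 1178 and 1046 in ctrl (log2 fold change -0.45 ± 0.22, standard error; by limma, adjusted p = 0.345). Its locus overlaps Mettl23 and Mfsd11 on the opposite strand, and 39.1% of its coding stretches of 50 bases also lie in transcripts of overlapping genes.

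Srsf10, a repressor when dephosphorylated, had 315.0 and 273.2 in IR, against 380.3, 532.6 and 400.8 in ctrl, again without overlap (log2 fold change -0.56 ± 0.30, standard error; by limma, adjusted p = 0.388). The SR genes with the highest scaled counts, a value that also grows with transcript length, were Srsf5 and Srsf11. Srsf5 was at 3251 and 3762 in IR, against 3992, 3685 and 3601 in ctrl, and Srsf11 was at 1203 and 1170 in IR, against 1567, 1674 and 1178 in ctrl. Their log2 fold changes were -0.10 ± 0.19 and -0.30 ± 0.22 (SE), with limma adjusted p of 0.841 and 0.557. Srsf1 and Srsf9, the remaining genes near 0, had log2 fold changes of 0.01 and -0.01.

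The hnRNP genes lay closer to the median of all genes, with a family median of -0.08. There were 13 negative and 7 positive fold changes (65% negative, beside 53.2% of all genes). Both IR libraries lay below all ctrl libraries in 2 of 20 (10%, beside 16.3% of all genes) and above them in 1 (5%, beside 15.2%). Hnrnpa2b1, an abundant binder of nuclear RNA, had 3730 and 3570 in IR, against 3583, 4152 and 3596 in ctrl. Hnrnpab had 3311 and 3112 in IR, against 4069, 2941 and 3401 in ctrl. The groups overlapped in both, with log2 fold changes of -0.05 ± 0.19 and -0.10 ± 0.20 (standard error; by limma, adjusted p = 0.936 and 0.855).

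Hnrnpa0, an A/B-type protein encoded without introns, had 984.3 and 688.4 in IR, against 1149, 1225 and 1410 in ctrl, with no overlap (log2 fold change -0.61 ± 0.23, standard error; by limma, adjusted p = 0.194). Hnrnph1, which binds runs of G, had 1168 and 664.0 in IR, against 1153, 2148 and 1379 in ctrl, so IR replicate 1 lay inside the ctrl range. Its log2 fold change was -0.77 ± 0.28 (standard error; by limma, adjusted p = 0.184). Its close relative Hnrnph2, chosen after its values were seen, stood on the other side with 529.1 and 991.0 in IR, against 521.4, 395.5 and 486.9 in ctrl. That was a log2 fold change of 0.64 ± 0.28 (standard error; by limma, adjusted p = 0.290), carried mainly by IR replicate 2.

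Hnrnpa3 had 210.3 and 89.1 in IR, against 159.7, 517.1 and 336.6 in ctrl, a log2 fold change of -1.14 ± 0.47 (standard error; by limma, adjusted p = 0.260) with wide scatter in both groups. The regulators of Ptprc exon choice were named after their values were seen. Hnrnpll had 242.1 and 272.3 in IR, against 224.8, 247.5 and 255.5 in ctrl, and Hnrnpl had 1506 and 1479 in IR, against 1686, 1836 and 1830 in ctrl. The groups overlapped for Hnrnpll and were apart for Hnrnpl, whose log2 fold change was -0.26 ± 0.20 (standard error; by limma, adjusted p = 0.586).

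The SF3 genes had a family median of 0.09, with 6 of 9 fold changes positive (33.3% negative, beside 53.2% of all genes). That median was -0.03 with library totals, where all genes had -0.17. It was -0.02 without IR replicate 2, where all genes had 0.03, and 0.31 without IR replicate 1. Sf3b1, the branch-point clamp of the U2 particle, had 5310 and 6742 in IR, against 5395, 5501 and 6012 in ctrl. Sf3b2, its partner in the SF3B complex, had 5087 and 6348 in IR, against 5189, 4391 and 4031 in ctrl, where IR replicate 1 lay just under ctrl replicate 1. Log2 fold changes were 0.09 ± 0.19 and 0.33 ± 0.19 (standard error; by limma, adjusted p = 0.866 and 0.425). Sf3a1, the SF3A subunit that contacts U1 and U2, had 1236 and 1313 in IR, against 1129, 1047 and 996.5 in ctrl, without overlap (log2 fold change 0.27 ± 0.21, standard error; by limma, adjusted p = 0.590). The small SF3B subunit gene Sf3b5 had 264.5 and 261.4 in IR, against 259.5, 113.3 and 146.0 in ctrl (log2 fold change 0.69 ± 0.41, standard error; by limma, adjusted p = 0.440). The median over the SF3 genes was -0.02 and 0.31 in the IR libraries, against -0.15 to 0.20 in the ctrl libraries.

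The U2AF and Snrp genes showed no common direction. U2af2, which binds the pyrimidine tract, had 438.4 and 432.0 in IR, against 540.0, 572.8 and 527.8 in ctrl, apart but with a log2 fold change of -0.33 ± 0.26 (standard error; by limma, adjusted p = 0.598). U2af1, which reads the AG, had 108.4 and 66.4 in IR, against 66.7, 113.3 and 40.8 in ctrl. Its paralogue U2af1l4 had 158.9 and 184.9 in IR, against 69.3, 176.3 and 69.3 in ctrl (log2 fold change 0.85 ± 0.51, standard error; by limma, adjusted p = 0.449), so ctrl replicate 2 reached the IR range. All of its coding stretches of 50 bases (100%) also lie in transcripts of overlapping genes (Gm49396 and Psenen), so its value is uncertain.

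Of 11 Snrp genes tested, 7 had negative and 4 positive fold changes (63.6% negative, beside 53.2% of all genes), with a median of -0.06. Snrpb, which encodes SmB of the ring shared by the snRNPs, was tight at 897.3 and 861.6 in IR, against 840.1, 826.7 and 772.4 in ctrl (log2 fold change 0.11 ± 0.23, standard error; by limma, adjusted p = 0.858). Snrpa, the U1 A protein, had 206.6 and 345.5 in IR, against 448.8, 211.0 and 195.6 in ctrl, and Snrpb2, its U2 counterpart, had 261.7 and 313.5 in IR, against 287.3, 207.4 and 259.9 in ctrl. The groups overlapped in both. Snrpe had 52.3 and 52.1 in IR, against 136.9, 70.3 and 63.5 in ctrl (log2 fold change -0.69 ± 0.62, standard error; by limma, adjusted p = 0.649). Snrpf was too low for a reading, at 38.3 and 5.0 in IR, against 34.7, 17.3 and 19.7 in ctrl (log2 fold change -0.63 ± 1.22, standard error; by limma, adjusted p = 0.852).

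**Figure D2:**
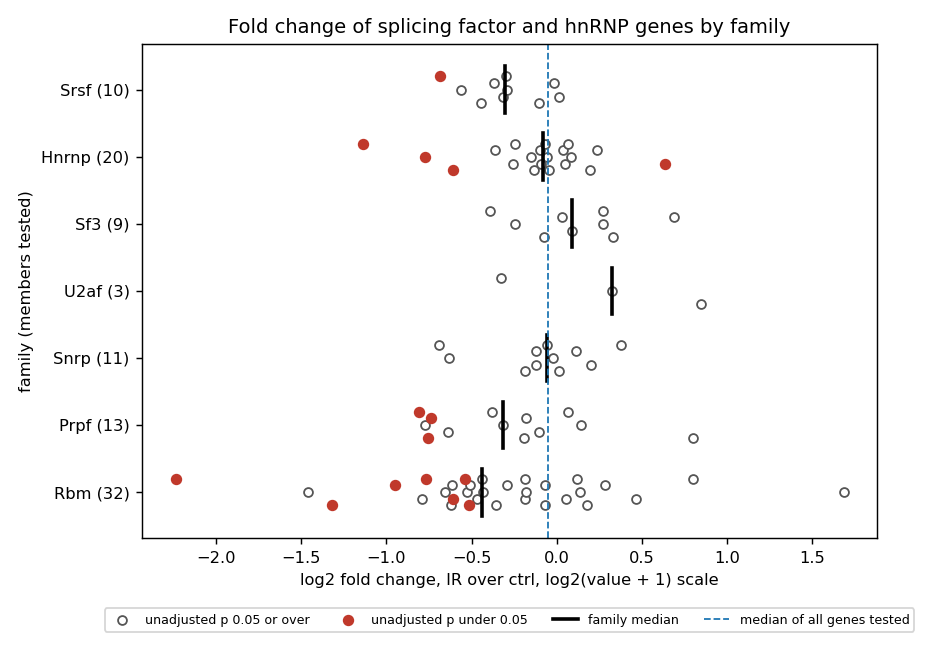
Log2 fold change of IR over ctrl (horizontal axis) for each of the 98 members tested, by family; bars are family medians, the dashed line is the median of all genes tested, and filled points have an unadjusted p under 0.05. Filled points are 14 lower members and Hnrnph2, and none passed after adjustment.

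The family medians in each library showed which differences were shared by both IR libraries. In the Prpf family the median log2 difference from the ctrl mean was -0.45 and -0.31 in the IR libraries, against -0.13 to 0.28 in ctrl. In the Rbm family it was -0.22 and -0.30 in the IR libraries, against -0.08 to 0.16 in ctrl. In the Hnrnp family it was -0.14 and -0.06, against -0.04 to 0.04. Over all members the IR libraries stood at -0.21 and -0.14, against -0.08 to 0.09 in ctrl. The summed values of the 102 members made up 1.04% and 1.01% of the library in IR, against 1.28%, 1.31% and 1.15% in ctrl. Their summed values were 78793 and 85093 in IR, against 92346, 95952 and 85439 in ctrl, so that IR replicate 2 and ctrl replicate 3 were nearly level without overlapping.

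**Figure D3:**
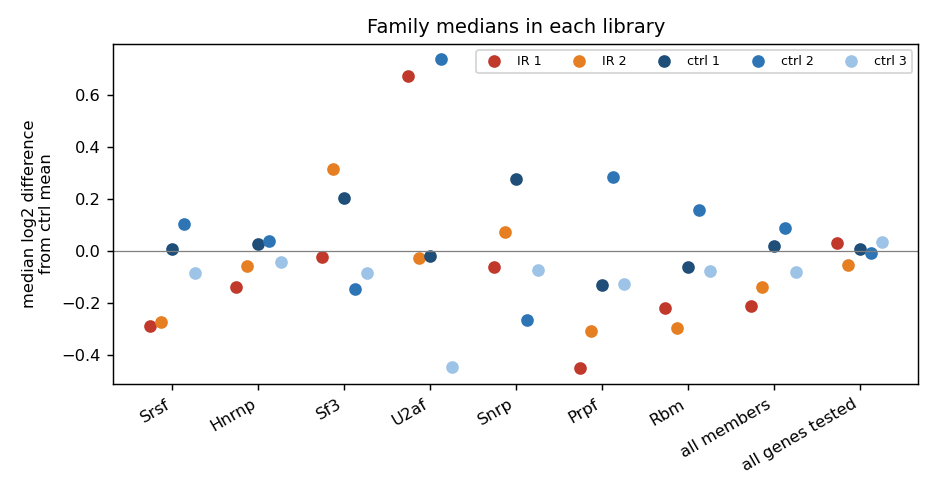
Median over each family's tested members of the log2 difference from the ctrl mean (vertical axis), for the 2 IR and 3 ctrl libraries. Both IR points lie under all ctrl points in the Srsf, Hnrnp, Prpf and Rbm families and over all members, and inside or above the ctrl range in the Sf3, U2af and Snrp families.

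Precision differed with level. The median SE of the log2 fold change was 0.62 in the 25 tested members with a mean under 200, 0.30 in the 47 of middle level and 0.20 in the 26 of highest level. Median log2 fold changes in these classes were -0.07, -0.24 and -0.14. Replicates of the members differed by a median absolute log2 value of 0.37 between the IR libraries and 0.21 to 0.36 between ctrl libraries, beside 0.60 and 0.38 to 0.51 over all genes.

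A list of other genes of splicing, with kinases, helicases and further RNA-binding proteins, was read from the same fit. Of 95 genes listed 93 were tested; 1 was called lower and 0 higher, where 0.36% and 1.14% of all genes were. Tra2b, an SR-like enhancer-binding protein (chromosome 16, 22244549 to 22266005), had 725.3 and 722.8 in IR, against 1257, 1666 and 1300 in ctrl. It fell in IR, with a log2 fold change of -0.95 ± 0.22 (standard error; by limma, adjusted p = 0.0298). The call was lost without ctrl replicate 1 (limma adjusted p = 0.124), ctrl replicate 2 (0.154) or ctrl replicate 3 (0.108), in each case with the log2 fold change between -1.02 and -0.82. With only 1 IR library kept, the log2 fold change was -0.95 without IR replicate 1 and -0.94 without IR replicate 2. Each of these values rests on 1 IR library with no spread within IR, so whether Tra2b passed there is not given. They do not show that the call holds when an IR library is left out.

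Over that list, 68 of 93 fold changes were negative (73.1%, beside 53.2% of all genes) and the median was -0.20. The IR libraries lay below all ctrl libraries in 27 genes (29.0%, beside 16.3% of all genes) and above them in 3 (3.23%, beside 15.2%). Syncrip, also known as hnRNP Q, had 542.1 and 398.4 in IR, against 869.7, 906.2 and 716.9 in ctrl (log2 fold change -0.83 ± 0.25, standard error; by limma, adjusted p = 0.0990). Eif4a3, the helicase of the exon junction complex, had 388.8 and 202.5 in IR, against 540.9, 555.4 and 510.3 in ctrl. Ddx46, a helicase of the U2 particle, had 1907 and 1579 in IR, against 2914, 2498 and 2364 in ctrl. Tia1, a U-rich binder near 5′ splice sites, had 99.1 and 51.2 in IR, against 155.5, 295.1 and 129.2 in ctrl. All of these were separated and none passed, with limma adjusted p of 0.137 for Eif4a3, 0.164 for Ddx46 and 0.202 for Tia1.

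Calls among the members depended on scaling, the pseudocount and library weights. With values scaled to library totals the median of all genes moved to -0.17 and that of the members to -0.30, so the distance between them stayed at -0.13. Under that scaling Prpf4b (limma adjusted p = 0.0238), Prpf38b (0.0320) and Rbm6 (0.0421) were called lower, where 0.909% of all genes were. The share of all calls that were higher was 55.2%, compared with 76.0% for the values as deposited: 143 genes were called higher and 116 lower with library totals, and 146 and 46 as deposited. With a pseudocount of 10 Prpf4b was called lower (limma adjusted p = 0.0407; 0.657% of all genes), and with library weights Rbm45 was (0.0340; 0.517% of all genes). Without IR replicate 1 there were 7 calls among 97 members: Hnrnpa0, Hnrnpa3, Hnrnph1, Rbm15b, Rbm45 and Rbm6 lower and Hnrnph2 higher. In that setting 4.52% of all genes were called lower and 3.61% higher.

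Compared per kilobase of annotated exon (GENCODE vM21), the mean level over the 5 libraries was highest for Hnrnpab, at 1210 scaled counts per kb, followed by Srsf5 at 917, Sf3b2 at 734, Rbm39 at 650 and Hnrnpa2b1 at 566. The lowest tested member was Prpf40b at 3.89. The median was 84.6 over the members tested and 36.6 over 12452 tested genes with an annotation. Transcripts annotated as targets of nonsense-mediated decay were listed for 45 of 98 members (45.9%), beside 27.1% of all genes, and retained-intron transcripts for 72 (73.5%), beside 56.2%. Members had a median of 6 annotated transcripts and all genes of 5.

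Some members share coding sequence with pseudogene copies or relatives elsewhere, where reads may be divided or dropped, and their values are uncertain for that reason. Each member's longest coding sequence was cut into all stretches of 50 bases, and each stretch was searched in the GENCODE transcripts of other genes outside the locus. For Hnrnpa1 80.8% of stretches recurred, in 19 other genes, and for Hnrnpa3 97.7% recurred, in 43. The stretch of each that most other genes hold is shown as an example of such sequence. It lies at coding bases 455 to 504 of Hnrnpa1 (chromosome 15) and is found in 9 other genes, and at coding bases 112 to 161 of Hnrnpa3 (chromosome 2), where it is found in 23.
Hnrnpa1: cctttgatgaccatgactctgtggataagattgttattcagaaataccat
Hnrnpa3: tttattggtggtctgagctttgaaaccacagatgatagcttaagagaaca

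Hnrnpa1, a very widely expressed hnRNP, was listed at 80.4 and 165.6 in IR, against 110.7, 130.6 and 119.7 in ctrl, or 38.5 scaled counts per kb. Its relative Hnrnpa2b1, with 4.06% of stretches shared, was at 566 per kb. Over the members, the median level was 39.4 per kb for the 18 with more than 50% of stretches shared, 102.5 for the 26 with a smaller share and 91.7 for the 54 with none. Srsf5 ran against that order, with 55.2% shared and 917 per kb. The part of multiple copies in these levels was not tested. Among members described above, Prpf4b, Prpf38b, Srsf6, Rbm25 and Rbm45 had 0% shared and Rbm6 had 17.0%. Besides Hnrnpa1, Hnrnpa3 and Srsf5, shares over 50% were found for Rbm3 (87.9%), U2af1 (87.4%), Snrpf (81.3%), Srsf10 (75.9%), Snrpe (56.8%), Rbm10 (56.4%) and Hnrnph2 (55.1%). Members not described above with such shares were Snrpg (100%), Hnrnpf (96.1%), Srsf3 (89.4%), Hnrnpk (75.1%), Sf3b4 (75.0%), Rbm12b2 (64.6%), Rbm12b1 (64.5%) and Snrpd2 (52.5%). These shares leave out genes that overlap the member's own locus; 19 of the 98 members hold stretches that such genes also hold.

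**Figure D4:**
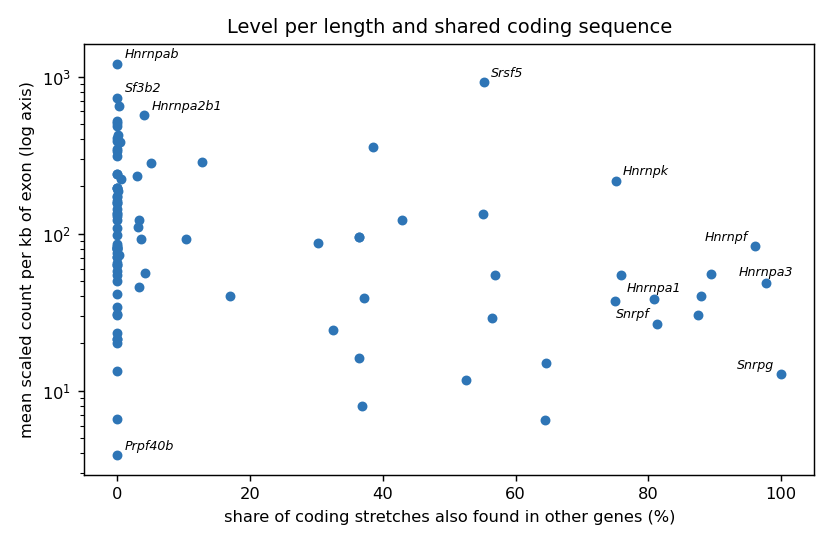
Mean scaled count per kb of exon over the 5 libraries (vertical axis, log) against the share of 50-base coding stretches that also occur in other genes (horizontal axis, percent), 1 point per tested member. The median is 39.4 per kb for members with more than 50% shared and 91.7 for those with none, so many of both lie under 100. Srsf5 at 917 and Hnrnpk at 218 are among the high-share members above that level.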

How the data were processed

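RNA of CD45-sorted lung cells had been made into libraries with the SMARTer stranded kit for low-input total RNA, per the labels' protocols. The submitters' processing notes name HISAT2, HTSeq and mm10 with no versions, and the sources used here give neither annotation nor strand setting. The deposited values are a scaled signal derived by the authors from read counts per gene, by a method that is not stated. Low values stepped in near multiples of 1 read, but only 86.1% to 100% per library within 0.1 of a step, so no count test was run.

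Groups follow the treatment label, with 2 IR and 3 ctrl libraries and no batch or pairing label. Genes at 10 or more in 2 libraries were fitted as log2(value + 1) by limma 3.58.1 under R 4.3.3 with statmod 1.5.0, using a mean trend and robust estimation, two-sided, and called at a Benjamini-Hochberg adjusted p under 0.05. Fold changes on that scale understate changes of low genes. Exact permutation over 10 splits cannot go under p = 0.1. The procedure was tested in 10 simulations with the spread of the ctrl libraries and 200 changed genes in each. It recovered 27.1% of 2-fold and 64.2% of 4-fold changes, and 7.26% of its calls were false. At values of 200 or more it recovered 55.4% and 99.1%. Counting error was not derived from scaled values.

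Members and lists were chosen with earlier results of these data known. Named genes were any member called, in each family the 3 with the smallest p and the 2 with the highest mean, and 6 of the other splicing list, of which 1 is not reported here. All 102 symbols were found in GENCODE vM21 (GRCm38). Promoters are RefSeq windows of GRCm38.p6. The motifs, the search for shared coding sequence and the genes plotted were chosen after the values had been seen. NK cell, alveolar macrophage, endothelium, pan leukocyte and red blood cell markers were also read and had 0 calls. Alternatives covered scaling, pseudocount, filter, robust estimation, library weights and each library left out.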

Additional observations from a re-analysis of the deposited data

How the results depend on the processing

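The members' median log2 fold change stayed negative under every alternative run, at -0.30 with library totals and between -0.23 and -0.14 with 1 library left out. The median of all genes was also negative, except without IR replicate 2 (0.03). The members' median minus that of all genes was -0.13 as deposited. It ranged from -0.24 without IR replicate 2 to -0.08 with array weights, and was -0.09 without IR replicate 1. Members called lower numbered 0 for the values as deposited, 3 with library totals, 1 with a pseudocount of 10 (Prpf4b), 1 with array weights (Rbm45) and 0 to 6 with 1 library left out; members called higher numbered 0 to 1 with 1 library left out. Other splicing genes called numbered 2 with library totals and 0 to 7 with 1 library left out. All genes called numbered 192, and 314 with a pseudocount of 10 and 19 to 1006 with 1 library left out. With library totals the fold change changed sign for Sf3b1 (-0.033), Snrpb (-0.0073) and Snrpa (-0.11). With 1 library left out, ranges crossed 0 for Srsf5 (-0.21 to 0.0023), Hnrnpa2b1 (-0.083 to 0.024), Hnrnpab (-0.21 to 0.021), Sf3b1 (-0.084 to 0.26), U2af1 (-0.035 to 0.69), Snrpf (-1.99 to 0.72), Snrpa (-0.36 to 0.39) and Prpf8 (-0.39 to 0.0026); none of these was called. The cause was not tested. No paired analysis was possible because no label pairs IR with ctrl libraries. Among the members with a mean under 200 the median standard error was 0.62, the widest of the level classes.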
